A study of Mus musculus with 6 samples.

Results

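Mast cell proteases, the α and β chains of the IgE receptor and the histamine-forming enzyme were followed in mouse colon with tumors through 10 genes. These are Mcpt1, Mcpt2, Mcpt4, Cma1, Tpsb2, Tpsab1, Cpa3, Fcer1a, Ms4a2 and Hdc. All gene probes named for one of these genes in the scanner output were taken, which gave 13 of 56605 gene probes and 10 of 37325 named genes. Array expression was measured in 6 samples, 3 labelled as given Rgnanomedicine and 3 labelled as given PBS. The study's methods identify the treatment as RG@M-γ-CD, the kinase inhibitor regorafenib (RG) held in nanoparticles of mannose-modified γ-cyclodextrin, given by mouth at 30 μg/g, equal to 10 μg/g of RG. All animals were male C57BL/6 mice bought at 6 to 8 weeks of age, and both groups carried tumors induced by 10 μg/g azoxymethane (AOM), a carcinogen, and colitis induced by drinking water with 2% dextran sodium sulfate (DSS). Treatment lasted 21 days, and the colons were taken 14 days later. The study's legends describe the samples of each array group as biologically independent mice, which the labels of the deposited samples do not state, and p-values measure the spread between these samples. Uninflamed colon without tumors and the carrier alone were not analysed here.

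Mast cells are tissue-resident immune cells whose granules hold serine proteases and carboxypeptidase A3 bound to proteoglycan, together with histamine. IgE bound to its high-affinity receptor FcεRI triggers release of these granules when antigen links the receptors. In mice, mucosal mast cells of the gut epithelium and lamina propria are known for the chymases encoded by Mcpt1 and Mcpt2, and connective tissue mast cells, found in deeper layers such as the submucosa, for Mcpt4, Cma1, Cpa3 and the tryptase Tpsb2. In the colon, mast cells accumulate in inflammation and around tumors.

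The chymase genes lie near each other on chromosome 14 of the RefSeq annotation of GRCm38.p6, with Cma1 at chr14:55941451-55944675, Mcpt1 at chr14:56017964-56020391, Mcpt2 at chr14:56021584-56044635 and Mcpt4 at chr14:56059744-56062310. The tryptase genes Tpsab1 (chr17:25343245-25345562) and Tpsb2 (chr17:25366308-25368096) are neighbors on chromosome 17. RefSeq lists Tpsab1 of this reference strain as a transcribed pseudogene and the other 9 genes as protein coding. Promoter windows from RefSeq matched 7 of the 10 genes. Windows of Mcpt1, Mcpt4, Cma1 and Cpa3 are shown because the levels of Cma1 did not move with those of the other 3 genes over the arrays. Each is the 250 bases before the listed transcript start in GRCm38.p6, in the direction of transcription, and capitals mark AGATAA, the form TGATAA, the form AGATAG or the form TGATAG on either strand, none of which overlaps another here, the letters that GATA factors such as the mast cell regulator GATA2 can bind.
Mcpt1 (chr14:56017714-56017963, + strand): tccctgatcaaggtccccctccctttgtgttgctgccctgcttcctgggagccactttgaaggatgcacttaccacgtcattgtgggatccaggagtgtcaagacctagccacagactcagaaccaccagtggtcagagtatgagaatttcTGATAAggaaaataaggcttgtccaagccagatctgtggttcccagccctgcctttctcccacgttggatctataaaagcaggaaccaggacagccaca
Mcpt4 (chr14:56062311-56062560, - strand): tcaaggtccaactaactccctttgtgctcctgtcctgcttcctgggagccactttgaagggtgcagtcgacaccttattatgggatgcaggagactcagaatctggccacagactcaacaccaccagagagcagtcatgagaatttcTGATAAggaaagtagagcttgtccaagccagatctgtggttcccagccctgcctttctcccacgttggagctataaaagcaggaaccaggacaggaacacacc
Cma1 (chr14:55944676-55944925, - strand): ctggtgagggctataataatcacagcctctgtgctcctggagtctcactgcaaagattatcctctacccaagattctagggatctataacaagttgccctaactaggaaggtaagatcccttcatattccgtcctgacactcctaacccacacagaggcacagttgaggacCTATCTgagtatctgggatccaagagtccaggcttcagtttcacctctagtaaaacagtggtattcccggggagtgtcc
Cpa3 (chr3:20242182-20242431, - strand): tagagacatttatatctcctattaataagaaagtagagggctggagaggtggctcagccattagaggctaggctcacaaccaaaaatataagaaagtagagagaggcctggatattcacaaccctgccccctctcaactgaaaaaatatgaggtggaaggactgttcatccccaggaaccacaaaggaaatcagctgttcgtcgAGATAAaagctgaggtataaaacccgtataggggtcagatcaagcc
The motif began 99 bases before the start in Mcpt1 and 103 bases before it in Mcpt4, and these windows were 81.9% identical over an alignment of 260 positions. Cma1 was 54.1% identical to Mcpt4, the highest of the other 20 pairs of the 7 windows, which began at 47.3%, and 51.3% identical to Mcpt1, below its 52.4% with Cpa3 and with Ms4a2. At least 1 of the motif's forms was present in all 7 windows, which also include Fcer1a, Ms4a2 and Hdc, and in 26.5% of all 32851 windows of this length. The windows describe letters only, and binding was not measured.

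Each probe is a 60-base oligonucleotide. The probes of Mcpt2 and Fcer1a are printed in lower case with no part singled out, the first as the gene with the widest range over the arrays and the second as a receptor subunit near the detection limit, at the mm9 positions given by the scanner output.
Mcpt2 (chr14:56662265-56662324): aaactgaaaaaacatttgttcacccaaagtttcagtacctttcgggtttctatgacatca
Fcer1a (chr1:175152865-175152924): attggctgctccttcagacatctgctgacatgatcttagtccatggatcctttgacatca
The longest run of bases shared by any 2 of the 13 member probes was 9, so no stretch longer than that was common to the probes of the related chymases. Probes were not compared with the transcripts of the other genes, so binding to a related transcript was not tested.

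All values below are log2 levels of a probe minus the array's own 75th percentile, where a step of 1 is a doubling, and the levels of different probes are not compared with each other. Of the gene probes, 49.6% to 55.2% were well above background per array, and of the 13 member probes 7 to 10. Each gene entered the fit through the brightest of its probes that were well above background throughout at least 1 group, which left 7 of the 10 genes and 19090 genes in all. All 6 arrays came from 1 slide and 1 scan, and they correlated with each other at r of 0.941 to 0.991 across the genes tested, which are not independent replicates. Row 1 of the slide holds RG@M-γ-CD replicates 1 to 3 together with PBS replicate 1, and row 2 holds PBS replicates 2 and 3, so the position cannot be fully told apart from the treatment. Without RG@M-γ-CD replicate 1, 206 of 19466 genes tested passed the adjusted threshold, and with it 0 of 19090 did. A heat map of the study places arrays 6, 7 and 8 on one side and arrays 5, 10 and 11 on the other, although the labels give arrays 5, 6 and 7 (RG@M-γ-CD replicates 1, 2 and 3) as treated and arrays 8, 10 and 11 (PBS replicates 1, 2 and 3) as control. Results are therefore given by the labels and then by that grouping, in which neither side is named as treated.

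Mast cell protease transcripts were present in tumor-bearing colon of both groups, and 0 of the 7 genes tested passed the test between RG@M-γ-CD and PBS. The mucosal chymases Mcpt1 and Mcpt2, together with Mcpt4 and Cpa3, instead spread 5.42-fold to 8.01-fold over the 6 arrays, with PBS replicate 3 highest and PBS replicate 2 lowest for each of these 4 genes. In PBS replicate 2 the intensities of Mcpt2 and Cpa3 were dim, at 35.1 and 47.4, though well above background. Those of Mcpt1 and Mcpt4 were 357.6 and 483.3 there. The connective tissue chymase Cma1 varied 2.11-fold and did not follow them. Hdc was highest in PBS replicate 1, and the receptor subunits Fcer1a and Ms4a2 were at the edge of detection.

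The mucosal chymases were examined first. Mcpt1 (probe A_51_P169476), a chymase released into the gut lumen and blood in intestinal inflammation, stood at 0.85, 1.1 and 1.21 in RG@M-γ-CD replicates 1, 2 and 3, and at 0.66, 0.16 and 2.82 in PBS replicates 1, 2 and 3. The RG@M-γ-CD arrays lay within 1.28-fold of each other, and the PBS arrays lay on both sides of them, with a 6.34-fold range. The log2 change of Mcpt1 was −0.16 (standard error 0.66, 95% interval −1.75 to 1.43), with an adjusted p of 0.9999 from limma over all genes tested, which was also that of the other 6 genes. Mcpt2 (A_51_P339843), the other chymase gene of mucosal mast cells, stood at −1.76, −1.91 and −1.65 in RG@M-γ-CD and at −2.24, −3.19 and −0.19 in PBS. The same order of PBS arrays as in Mcpt1 was seen, with the RG@M-γ-CD arrays within 1.20-fold of each other between them and an 8.01-fold range in PBS. The log2 change of Mcpt2 was 0.10 (standard error 0.71, 95% interval −1.61 to 1.82).

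Among the genes of connective tissue mast cells, Mcpt4 had the same highest and lowest arrays as the mucosal chymases and Cma1 did not. Mcpt4 (A_51_P145132), whose chymase cleaves matrix and coagulation proteins, stood at 1.40, 1.68 and 1.43 in RG@M-γ-CD and at 0.96, 0.59 and 3.13 in PBS. PBS replicate 3 was 2.73-fold above the highest RG@M-γ-CD array for this gene, and the other PBS arrays lay below all of them. Its log2 change was −0.056 (standard error 0.64, 95% interval −1.60 to 1.49). Cma1 (A_51_P514035), the other chymase gene of connective tissue mast cells, stood at 0.57, 1.48 and 0.49 in RG@M-γ-CD and at 1.42, 1.56 and 1.28 in PBS. RG@M-γ-CD replicates 1 and 3 lay below every PBS array, and replicate 2 lay among them. Its log2 change was −0.58 (standard error 0.29, 95% interval −1.28 to 0.13, unadjusted p = 0.0924 from limma).

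The tryptases and the carboxypeptidase did not pass the test either. Cpa3 (A_51_P214127), whose exopeptidase is stored with the chymases and degrades peptides such as endothelin and venom toxins, stood at −1.32, −2.23 and −2.26 in RG@M-γ-CD and at −2.62, −2.76 and −0.32 in PBS. RG@M-γ-CD replicate 1 came next after PBS replicate 3 for this gene, and the log2 change was −0.036 (standard error 0.68). Tpsb2 (A_55_P2127243), the main active tryptase gene of this strain, stood at −1.55, −1.89 and −2.56 in RG@M-γ-CD and at −2.39, −2.34 and −1.02 in PBS. PBS replicate 3 was again highest and RG@M-γ-CD replicate 1 next, but the lowest array was RG@M-γ-CD replicate 3, and the 6 arrays spanned 2.91-fold (log2 change −0.085, standard error 0.44). Tpsab1 (A_52_P8459) was well above background on 0 of the 6 arrays, with levels of −6.85 to −6.31.

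The FcεRI subunits Fcer1a and Ms4a2 were detected on only some arrays of each group, so no change between the groups is given for them. Fcer1a (A_51_P429770), the chain that binds IgE, stood at −3.46, −4.23 and −3.77 in RG@M-γ-CD and at −4.61, −4.38 and −1.81 in PBS, and it was well above background in RG@M-γ-CD replicates 1 and 3 and in PBS replicate 3. Ms4a2, the signal-amplifying β chain, has 2 probes. A_65_P16227 stood at −2.73, −4.82 and −5.08 in RG@M-γ-CD and at −4.73, −5.08 and −3.09 in PBS, well above background in RG@M-γ-CD replicate 1 and PBS replicate 3, while A_55_P2176015 was so on 0 of the 6 arrays. PBS replicate 3, where Mcpt1, Mcpt2, Mcpt4, Cpa3 and Tpsb2 were highest, was thus the 1 PBS array with a detected signal for Fcer1a and for Ms4a2. RG@M-γ-CD replicate 1 had one for both as well.

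Hdc, which encodes the histidine decarboxylase that forms histamine in mast cells and also in other myeloid cells and enterochromaffin-like cells, followed another order. Its tested probe (A_51_P254656) stood at −0.92, −1.78 and −2.26 in RG@M-γ-CD and at 0.48, −1.24 and −0.97 in PBS. PBS replicate 1 was 2.64-fold above the next array, and RG@M-γ-CD replicate 1 lay above both of the other PBS arrays, so the groups overlapped. The log2 change was −1.08 (standard error 0.54, 95% interval −2.37 to 0.22, unadjusted p = 0.0885 from limma). Another probe of Hdc (A_55_P2631999), designed on another transcript, stood at −4.79, −4.14 and −5.60 in RG@M-γ-CD and at −3.35, −4.70 and −4.35 in PBS. It was well above background in PBS replicates 1 and 3 alone, although the level in RG@M-γ-CD replicate 2 lay above that in PBS replicate 3. The third probe (A_66_P125908) was well above background on no array.

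**Figure D1:**
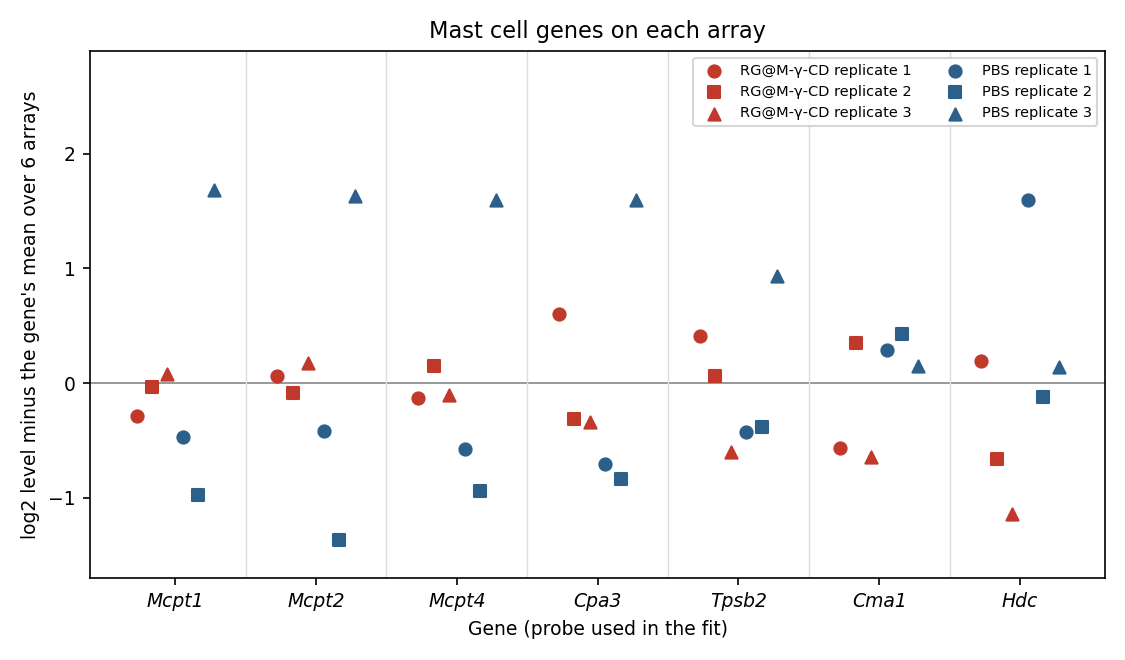
Log2 level of each of the 7 genes tested on each of the 6 arrays, with the gene's mean over the arrays subtracted. Red marks RG@M-γ-CD and blue PBS, and the shape gives the replicate. PBS replicate 3 is the highest point and PBS replicate 2 the lowest for Mcpt1, Mcpt2, Mcpt4 and Cpa3, with the RG@M-γ-CD arrays between them, while Cma1 spans 2.11-fold and Hdc is highest in PBS replicate 1.

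As labelled, 0 of the 7 genes had an adjusted p below 0.05 in limma, against 0% (0 of 19090) of all genes tested, and the methods' t-test also left 0 members past its own thresholds. At an unadjusted p below 0.05 there were 0 of 7, against 2.19% of all genes. Arrays of the groups did not overlap for 0 of 7, against 4.57% of all genes. Mcpt2 had a positive log2 change and 6 had a negative one, with a median of −0.085, against −0.012 for all genes tested, of which 47.3% were positive. For the 5 genes other than Cma1 and Hdc, the change was smaller than the spread of the PBS arrays. The standard deviation within PBS was 1.42 for Mcpt1, 1.53 for Mcpt2, 1.37 for Mcpt4 and 1.37 for Cpa3, with a median of 0.21 for all genes tested, and it exceeded that of 99.4% to 99.7% of them. It was 0.78 for Tpsb2 and 0.92 for Hdc, which exceeded 95.3% and 97.1% of the genes, and 0.14 for Cma1, which exceeded 28.8%. Within RG@M-γ-CD, where the median of all genes was 0.30, the standard deviation was 0.18 for Mcpt1, 0.13 for Mcpt2 and 0.16 for Mcpt4, and it was larger for Cpa3 (0.54), Tpsb2 (0.51), Hdc (0.68) and Cma1 (0.55), which exceeded that of 74.7% to 83.2% of the genes. In bulk tissue, more mast cells and more of these transcripts per cell cannot be told apart.

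Leaving out PBS replicate 3 turned the sign of 4 of the 7 changes. Without it the log2 change became 0.64 for Mcpt1, 0.73 for Mcpt4, 0.75 for Cpa3 and 0.36 for Tpsb2, and that of Mcpt2 was 0.94, while without PBS replicate 2 the changes were −0.69, −0.54, −0.47, −0.30 and −0.56 in the same order. Without PBS replicate 3 the unadjusted p from limma was 0.0210 for Mcpt4, 0.0308 for Mcpt2 and 0.0474 for Mcpt1. It was above 0.05 for the other genes, and the adjusted p of these 3 was 0.99998. Cma1 stayed between −0.89 and −0.40 and Hdc between −1.44 and −0.55 over the 6 fits without 1 array, and neither passed the adjusted threshold in any of them. The smallest unadjusted p of any member in these fits was 0.00211, for Cma1 without RG@M-γ-CD replicate 2 (log2 change −0.89, standard error 0.17, adjusted p = 1.0 from limma). With the slide row as a block, where row 1 alone holds both groups and PBS replicate 1 is its only control, the change was 0.54 for Mcpt4, 0.39 for Mcpt1, 0.69 for Cpa3, 0.38 for Tpsb2 and −2.13 for Hdc, with adjusted p of 0.997.

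**Figure D2:**
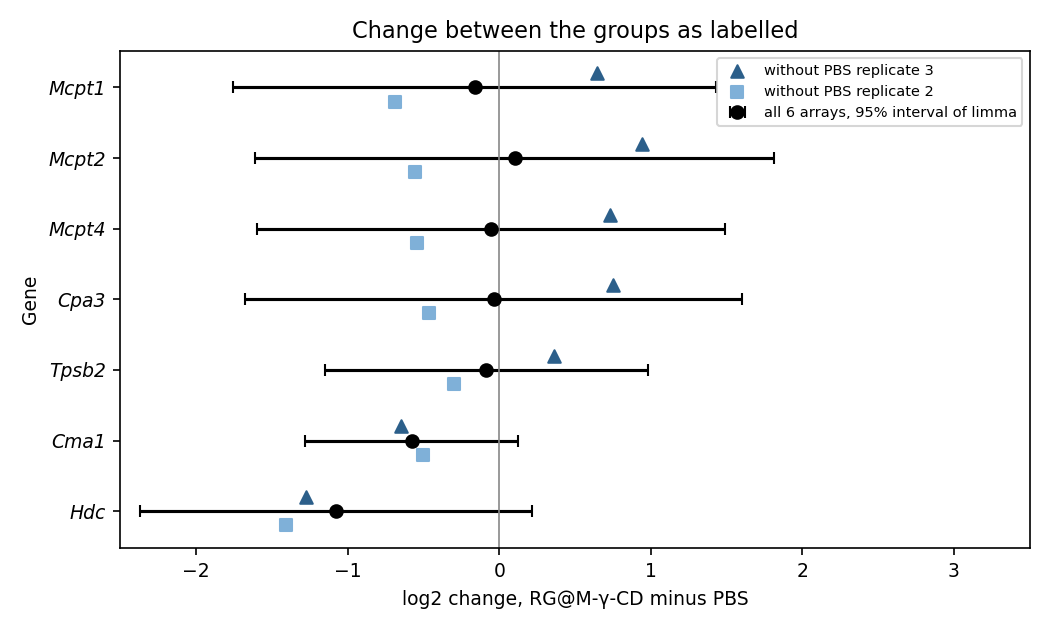
Log2 change of each gene tested, RG@M-γ-CD minus PBS as labelled. Black points are the fit to all 6 arrays with its 95% interval from limma, and blue triangles and light squares are the fits without PBS replicate 3 and without PBS replicate 2. All 7 intervals include 0, and the triangles and squares of Mcpt1, Mcpt2, Mcpt4, Cpa3 and Tpsb2 lie on opposite sides of 0, while those of Cma1 and Hdc lie on the negative side.

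With arrays 6, 7 and 8 set against arrays 5, 10 and 11, 0 of the 7 genes passed the adjusted threshold, against 0.0259% of 19298 genes, and 0 lay below an unadjusted p of 0.05, against 16.6%. All 7 changes were negative for arrays 6, 7 and 8, and their median was −0.28, against −0.12 for all genes, of which 36.2% were positive. Cpa3 had the change farthest from 0, at −0.91 (standard error 0.58, adjusted p = 0.388 from limma), followed by Tpsb2 at −0.64 (standard error 0.36, adjusted p = 0.350). Mcpt1, Mcpt2 and Mcpt4 were at −0.28, −0.22 and −0.35, Hdc at −0.14 and Cma1 at −0.010. PBS replicate 3 and RG@M-γ-CD replicate 1, both high in Cpa3 and Tpsb2, fall on the same side of this grouping, and so does PBS replicate 2, which was low in Cpa3.

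Mcpt1, Mcpt2 and Mcpt4 varied together over the arrays, and Cma1 did not vary with them. The 21 pairs of tested genes were each examined over the 6 arrays with exact two-sided permutation tests over 720 orders. Mcpt1 and Mcpt4 had r = 0.987 (exact permutation p = 0.00417, adjusted p = 0.0365 over the 21 pairs) and rho = 0.943 (exact permutation p = 0.0167, adjusted p = 0.175). Mcpt1 and Mcpt2 had r = 0.969 (exact permutation p = 0.00417, adjusted p = 0.0365) and rho = 0.943 (exact permutation p = 0.0167, adjusted p = 0.175). Without the 2 arrays farthest from the median of Mcpt1, r was 0.792 with Mcpt4 and 0.774 with Mcpt2 over the remaining 4 arrays, and without PBS replicate 3 it was 0.931 and 0.944 over 5. These relations thus did not rest on PBS replicate 3 alone. Mcpt2 and Mcpt4 had r = 0.961 (exact permutation p = 0.00694, adjusted p = 0.0365), and 0.891 without PBS replicate 3. Cpa3 and Mcpt4 had r = 0.899 (exact permutation p = 0.0153, adjusted p = 0.0535) and rho = 0.829 (exact permutation p = 0.0583, adjusted p = 0.245), with r = 0.979 without the 2 arrays farthest from the median of Cpa3 and 0.607 without PBS replicate 3. Cpa3 and Mcpt2 had r = 0.894 (exact permutation p = 0.00556, adjusted p = 0.0365), and 0.661 without PBS replicate 3. Cma1 and Mcpt4 had r = −0.065 (exact permutation p = 0.922, adjusted p = 0.979) and rho = −0.371 (exact permutation p = 0.497, adjusted p = 0.697). Hdc and Mcpt4 had r = −0.14 (exact permutation p = 0.785, adjusted p = 0.979) and rho = −0.314 (exact permutation p = 0.564, adjusted p = 0.697). No adjusted p for rho passed 0.05 in any pair.

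**Figure D3:**
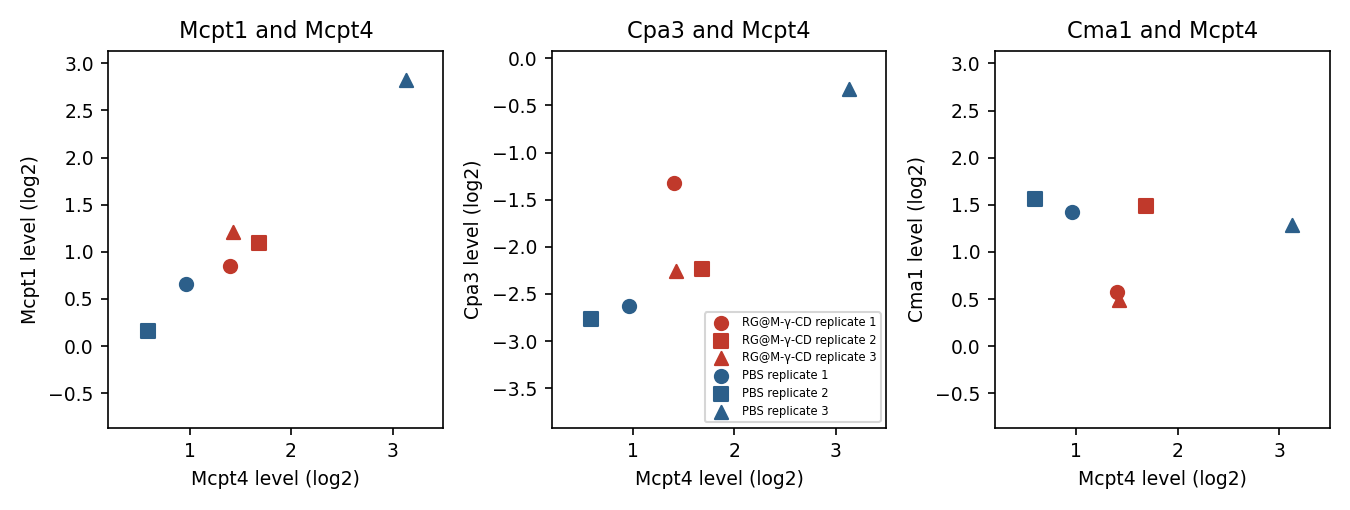
Log2 levels of Mcpt1, Cpa3 and Cma1 on the vertical axes against that of Mcpt4 on the horizontal axis, 1 point per array, with red for RG@M-γ-CD and blue for PBS and shapes for replicates. Mcpt1 rises with Mcpt4 over all 6 arrays (r = 0.987), Cpa3 does so with more scatter (r = 0.899), and Cma1 lies between 0.49 and 1.56 without following Mcpt4 (r = −0.065).

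Of 19083 other genes tested, 24 followed the mean of the 7 members, centered per gene, at r above 0.9 over the 6 arrays. The 5 with the highest r were Alox5 (r = 0.985), the mast cell protease pseudogene Mcpt-ps1 (r = 0.985), Gm14325 (r = 0.981), Nrxn3 (r = 0.975) and the transcript ENSMUST00000103304 (r = 0.970). Alox5, the lipoxygenase that starts leukotriene synthesis, stood at −2.62, −2.96 and −3.29 in RG@M-γ-CD and at −3.06, −3.42 and −1.74 in PBS. Mcpt-ps1 stood at −1.64, −1.62 and −1.79 in RG@M-γ-CD and at −1.50, −2.09 and −0.33 in PBS, and its probe shared at most 8 bases in a row with any member probe. PBS replicate 3 was the highest array in each of these 5 genes and PBS replicate 2 the lowest, but Gm14325 spanned only 0.18 on the log2 scale. These likenesses share the 6 arrays and are a description, and the number of unrelated genes that would reach an r above 0.9 was not estimated.

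The other genes of mast cell biology were taken from gene lists, in which 0 genes passed the adjusted threshold. Of 7 other granule proteases on the array 3 were tested, all with a negative change and a median of −0.22. Cma2, a chymase gene, stood at −1.29, −1.41 and −1.51 in RG@M-γ-CD and at −1.81, −1.59 and −0.15 in PBS, again with PBS replicate 3 highest. Gzmb, the cytotoxic granzyme B, had a log2 change of −0.52 (standard error 0.35) and Tpsg1, a membrane-anchored tryptase, one of −0.066 (standard error 0.50). Of the signaling genes downstream of FcεRI, 14 of 14 were tested, 13 with a negative change. Their median was −0.39, against −0.012 for all genes tested, of which 47.3% were positive. At an unadjusted p below 0.05 from limma there were 2 of 14, against 2.19% of all genes. These were the adaptors Lat (−0.73, standard error 0.26, unadjusted p = 0.0259) and Lat2 (−0.52, standard error 0.20, unadjusted p = 0.0379), which also serve other leukocytes. Lat stood at −2.66, −3.10 and −3.21 in RG@M-γ-CD and at −1.85, −2.32 and −2.60 in PBS, without overlap. The kinase Lyn had a log2 change of −0.34 (standard error 0.15), the phosphatase Inpp5d one of −0.42 (standard error 0.23), and Fcer1g, the shared γ chain, one of −0.54 (standard error 0.37). By the heat map grouping, the 14 signaling genes had a median of −0.17, against −0.12 for all genes. In that grouping 0 of 14 lay below an unadjusted p of 0.05 from limma, against 16.6% of all genes.

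Growth and differentiation genes were mixed, with 5 of 9 tested positive and a median of 0.098. Gata2, a transcription factor of mast cells and basophils that endothelium also expresses, stood at −1.08, −0.93 and −0.30 in RG@M-γ-CD and at −1.67, −1.63 and −1.60 in PBS. Every RG@M-γ-CD array lay above every PBS array (log2 change 0.86, standard error 0.23, unadjusted p = 0.00854, adjusted p = 1 from limma). Kit, the receptor for stem cell factor that defines mast cells and also marks pacemaker cells of the gut wall, stood at 0.42, 2.39 and 1.37 in RG@M-γ-CD and at 1.02, 1.61 and 1.26 in PBS, with PBS replicate 3 between other arrays. Il1rl1, the IL-33 receptor, stood at −2.16 in RG@M-γ-CD replicate 2 and between 2.04 and 2.97 on the other arrays. Csf2rb had a log2 change of −0.75 (standard error 0.33) and Runx1 one of −0.31 (standard error 0.34). Mrgprb1 and Mrgprb2, receptors of connective tissue mast cells, were well above background on 0 arrays, and of 7 other surface receptors tested 3 were positive, with a median of −0.0087. The leading ones were Siglecf (−0.39, unadjusted p = 0.048), Itgb7 (−0.48), Itgae (−0.28) and Ptger3 (0.75).

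Mediator genes beyond Hdc gave a median of 0.016 over 13 genes tested, 8 of them positive. Slc18a2, the vesicular transporter that loads histamine and serotonin, stood at −2.74, −2.21 and −2.02 in RG@M-γ-CD and at −2.63, −3.50 and −1.91 in PBS, with PBS replicate 3 highest and PBS replicate 2 lowest as in Mcpt1, Mcpt2, Mcpt4 and Cpa3. Srgn, the granule proteoglycan core, had a log2 change of −0.53 (standard error 0.31) and Serpinb1a one of −0.21 (standard error 0.20). Among genes for histamine receptors and breakdown, 4 of 4 tested were positive, against 47.3% of all genes, with a median of 0.63. At an unadjusted p below 0.05 from limma there were 0, against 2.19% of all genes. Hnmt, which methylates histamine, had a log2 change of 0.93 (standard error 0.40) and Aoc1, which oxidizes it, one of 0.53 (standard error 0.26), while the receptors Hrh3 and Hrh1 had log2 changes of 0.73 (standard error 0.48) and 0.19 (standard error 0.20). Of the 9 type 2 and mast cell cytokines, Il33, an alarmin that binds Il1rl1, was the 1 gene tested, at −0.75 (standard error 0.56), and Il4, Il5, Il9 and Il13 were well above background on 0 arrays.

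Markers of other cells that could carry these transcripts were measured on the same arrays. The basophil proteases Mcpt8 and Prss34 were well above background on 1 and 0 of the 6 arrays. Of the eosinophil granule genes, Epx, Prg2 and Ear6 were so on 0 arrays, Prg3 and Ear1 on 1 each and Ear2 on 6. Of the basophil list 3 of 6 genes were tested, 1 positive with a median of −0.043, led by Gata2, Itga2 (−0.64, unadjusted p = 0.0411) and Il3ra (−0.043). Of the eosinophil list 4 of 10 were tested, 1 positive with a median of −0.35, led by Il5ra (−1.27, unadjusted p = 0.0412), and the summed level of its genes, on a linear scale relative to the 75th percentile, ranged from 0.51 to 3.53 in RG@M-γ-CD and from 0.61 to 1.83 in PBS. The highest sum, in RG@M-γ-CD replicate 1, was mostly Alox15, a lipoxygenase that other cells also express, at a log2 level of 1.61 there. Neutrophil genes were negative in 7 of 9 tested, with a median of −1.11 and summed levels of 47.3 to 101.0 in RG@M-γ-CD and 60.2 to 104.4 in PBS. Leaving out RG@M-γ-CD replicate 1, 2 or 3 gave medians of −2.15, −0.30 and −0.55. The sum was highest in PBS replicate 1, through the probe of Csf3r (log2 level 6.01), while S100a9 was highest in RG@M-γ-CD replicate 1 (5.73) and S100a8 in PBS replicate 3 (3.56). Camp (0.54, unadjusted p = 0.0424) and Ltf (−1.52) led that list. Macrophage and monocyte genes were negative in 10 of 10 (median −0.50, summed levels of 122.5 to 281.8 and 240.9 to 311.8, led by Ly6c2 at −0.58) and T cell genes in 8 of 8 (median −0.58, summed levels of 5.77 to 8.75 and 8.79 to 10.4, led by Cd3g at −0.64, unadjusted p = 0.0386). Of all genes tested, 47.3% were positive. The macrophage and monocyte sums were mostly Lyz2 and Ly6c2, at log2 levels of 5.45 to 7.09 and 6.06 to 7.36 over the arrays. The part of these cells in the member values was not tested.

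Genes of the colon wall and the epithelium were measured as well, and of all genes tested 47.3% were positive. Smooth muscle genes were positive in 9 of 9 tested, with a median of 0.95, and their summed level was 104.5, 675.1 and 809.0 in RG@M-γ-CD replicates 1, 2 and 3 and 198.6 to 231.5 in PBS. Leaving out RG@M-γ-CD replicate 1, 2 or 3 gave medians of 1.82, 0.53 and 0.38. Smtn led that list at 0.91 (standard error 0.65). Colon epithelium genes were positive in 6 of 12, with a median of −0.030 and summed levels of 1350 to 1802 in RG@M-γ-CD and 1354 to 2068 in PBS, led by Krt18 at −0.25. Endothelial genes were positive in 8 of 8 (median 0.29, led by Tek at 0.72, unadjusted p = 0.0248), fibroblast genes in 6 of 8 (median 0.051, led by Lum at 0.87), and B and plasma cell genes in 1 of 7 (median −0.46, led by Jchain at 0.49). In the summed levels, PBS replicate 3 was the highest of the 6 arrays for macrophage and monocyte genes (311.8) and for B and plasma cell genes (125.3) and the lowest for endothelial genes (15.3), and it lay between the other PBS arrays for smooth muscle, epithelium, fibroblast, neutrophil and basophil genes. The part of tissue makeup in the member values was not tested.

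**Figure D4:**
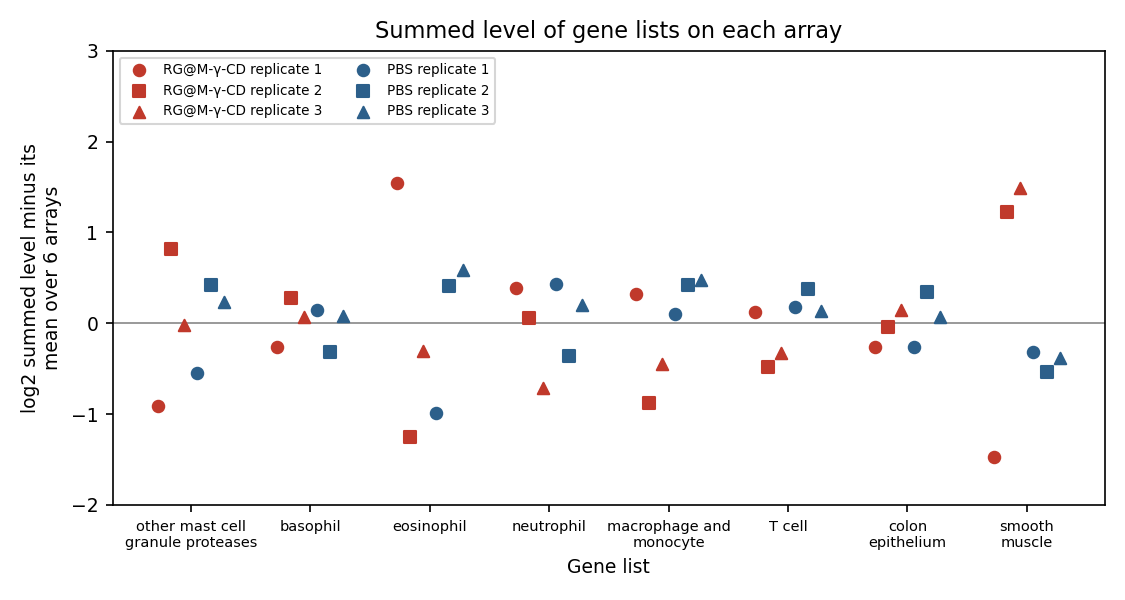
Log2 of the summed linear level of 8 gene lists on each array, with the list's mean over the 6 arrays subtracted, red for RG@M-γ-CD and blue for PBS. Smooth muscle separates RG@M-γ-CD replicates 2 and 3 (675.1 and 809.0) from replicate 1 (104.5) and from the PBS arrays (198.6 to 231.5), and the eosinophil list spreads from 0.51 to 3.53 within RG@M-γ-CD, where Alox15 makes most of the highest sum.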

How the data were processed

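Gene expression was measured on one-color Agilent mouse arrays hybridized with Cy3-labeled RNA of colon with tumors from 3 RG@M-γ-CD and 3 PBS samples. For each array the authors deposited the intensity of each spot from Feature Extraction 10.7.1.1 (submitters' processing notes), after its background correction and before any scaling across arrays, and a probe-level table of log2 values, deposited with columns of near-equal median (4.84) that each follow their own array at r of at least 0.999. Its normalization method is not given in the sources used here.

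Outlier spots (790) were left out, spots averaged, and the 75th percentile of each array subtracted from log2 intensity. Genes were tested on their brightest probe well above background with limma 3.58.1 in R 4.3.3 (lmFit, eBayes, Benjamini-Hochberg, threshold 0.05), tested on simulated data first. Correlations used NumPy 2.4.6 with exact permutation, and motifs and alignments used Biopython 1.88. Symbols came from RefSeq by accession for 32994 probes and otherwise from the scanner output (23611). Of 163 list genes 161 were on the array. Precision is limited by 3 arrays per group, and the smallest two-sided p of an exact permutation test of 3 against 3 is 0.1.

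All members, the genes past the threshold or up to 4 tested genes of smallest unadjusted p of each list, and the 5 genes most like the members could be named. Genes given beyond this rule (Kit, Fcer1g, Mrgprb1, Mrgprb2, Csf3r, S100a9, Prg3, Ear1 and undetected markers) were chosen after their values were seen. The members and lists were chosen with earlier results of these data known. Alternatives covered normalization, background, the authors' table, probe filters, probe choice, outlier spots, the replicate number, the slide row, the methods' t-test, the grouping of the heat map and leaving out each array.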

Additional observations from a re-analysis of the deposited data

How the results depend on the processing

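No member passed the adjusted threshold under any of the alternatives run. Over all genes, the count past the threshold was 0 except for 5 with the arrays grouped as in the heat map, and it ranged from 0 to 206 with 1 array left out, the highest without RG@M-γ-CD replicate 1. The median change of the members, −0.085, ranged from −0.54 without PBS replicate 2 to 0.64 without PBS replicate 3, and was 0.39 with the slide row as a block. With normexp background correction the standard errors were 0.45 for Mcpt2 and 0.43 for Cpa3, against 0.71 and 0.68 in the main fit. The size of their spread thus depended on the background step. Signs reversed for Mcpt2 with normexp background correction (−0.13) and with the heat map grouping (−0.22), and with the slide row as a block for Cpa3 (0.69), Mcpt1 (0.39), Mcpt4 (0.54) and Tpsb2 (0.38). With 1 array left out, changes ranged from −0.47 to 0.75 for Cpa3, −0.69 to 0.64 for Mcpt1, −0.56 to 0.94 for Mcpt2, −0.54 to 0.73 for Mcpt4 and −0.32 to 0.36 for Tpsb2. Besides PBS replicates 2 and 3, the arrays that turned a sign were RG@M-γ-CD replicates 2 (Cpa3, 0.11) and 3 (Cpa3, 0.13, and Tpsb2, 0.19) and PBS replicate 1 (Mcpt2, −0.080). With 1 array left out, list medians ranged from −2.15 (RG@M-γ-CD replicate 1) to −0.30 (replicate 2) for neutrophils, 0.38 (replicate 3) to 1.82 (replicate 1) for smooth muscle, −0.79 (replicate 1) to −0.31 (replicate 2) for macrophages, −1.26 (PBS replicate 3) to 0.38 (PBS replicate 1) for B and plasma cells, −0.47 to −0.24 (PBS replicate 1) for FcεRI signaling, 0.11 (PBS replicate 3) to 0.46 (PBS replicate 2) for endothelium and −0.55 (RG@M-γ-CD replicate 1) to −0.24 for eosinophils. They changed sign in at least 1 such fit for 8 of 16 lists. The heat map grouping gave −1.68 for neutrophils, 1.71 for smooth muscle, 1.03 for B and plasma cells, −0.93 for eosinophils, 0.20 for histamine genes and 0.37 for basophils. The cause of these shifts was not tested. Among 45 genes at the methods' thresholds by the methods' t-test, 0 were members, and after Benjamini-Hochberg 0 genes were left.

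Same-numbered arrays of the 2 groups deviated together at correlations of −0.25, −0.23 and 0.14, and differently numbered ones at −0.33 to 0.41. With 3 arrays per group, these values cannot show whether the replicate numbers pair the samples. With the replicate block, 0 members and 0 genes passed, and the members' median was −0.085. Hdc had an unadjusted p of 0.00986 from limma in that fit (log2 change −1.08, standard error 0.25). The share of probes well above background limits Fcer1a, Ms4a2 and Tpsab1, whose fits without a filter on dim probes rest on arrays near background and are not given.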
